A study of Rattus norvegicus with 24 samples.

Results

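Liver and spleen of the same vehicle-dosed rats were set against each other, gene by gene, to describe how the 2 organs differ at baseline. The members are the 12 arrays of vehicle rats among the 24 of the series: 1 liver and 1 spleen array from each of 6 animals, chosen by their labels (vehicle, 5 days) and paired by animal number. All were wild type male Sprague-Dawley rats, labelled as 46 to 49 days old, dosed orally with vehicle for 5 days. Rats 1001, 1003 and 1005 were kept with no wood stick and rats 3001, 3003 and 3005 with one. The other 12 arrays come from rats given cyclophosphamide, an alkylating drug, at 40 mg/kg/day, and are used here only where the organ difference is compared between treatments. Each array measured total RNA of a whole organ piece from 1 rat on an Affymetrix rat expression array of 30980 probe sets.

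The liver is built mostly of hepatocytes, which make the proteins of blood plasma, turn ammonia into urea, store and release glucose, make bile and clear foreign compounds. The spleen filters blood. Its red pulp holds macrophages that break down old red cells, and in rodents also red cell precursors and megakaryocytes, while its white pulp holds B and T lymphocytes arranged around small arteries. Both organs have sinusoidal blood vessels and resident macrophages, called Kupffer cells in the liver. In bulk RNA, fewer cells of a type and less RNA per cell cannot be told apart.

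Values are log2 intensities, obtained from the deposited log10 values, and a difference of 1 is a factor of 2. A blank in the deposited table was left missing. The liver arrays had 4924 to 5139 blanks among 30980 probe sets and the spleen arrays 1054 to 1920, of which the 3 rats without wood had 1778 to 1920 and the 3 with wood 1054 to 1183. Pearson's r over genes with values on both arrays, as a description, was 0.937 to 0.951 between livers and 0.546 to 0.575 between liver and spleen. Between spleens it was 0.967 to 0.976 within a housing and 0.920 to 0.924 across housings. The highest values of an array lay between 13.43 and 13.96, which leaves little room above the strongest genes.

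The markers of hepatocytes, B cells and T cells fitted the labels, while those of other liver cells were less distinct. The summed intensity of 7 hepatocyte markers (Alb, Ttr, Apoa1, Serpina1, Tat, Cyp2e1 and Cps1) was 15.86 to 16.03 on the log2 scale in the livers and 8.35 to 9.82 in the spleens. The 3 measured B cell markers (Cd79b, Ms4a1 and Cr2) summed to 6.62 to 7.62 in the livers and 13.39 to 13.90 in the spleens, and the 5 T cell markers to 7.15 to 8.23 and 11.81 to 12.38. Markers of the exocrine pancreas, which lies against the spleen, were at 8.17 to 9.02 in liver and 7.56 to 8.93 in spleen, and those of fat at 4.10 to 5.96 and 6.45 to 7.17. The part of attached tissue in the organ differences was not tested.

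The paired test was limma's moderated test of the within-rat differences, with Benjamini-Hochberg adjustment over all genes tested. A gene is called at an adjusted p under 0.05, and a gene is described as 4-fold higher when it is called and differs by at least 2 on the log2 scale. Of 14201 genes with a single name, 12639 had values in both organs of at least 3 rats and were tested. Of these, 9832 were called (77.8%): 2446 genes (19.4%) were higher in liver and 7386 (58.4%) higher in spleen, and 9374 had the same sign in every rat measured. The 4-fold genes were 792 in liver (6.27%) and 2088 in spleen (16.5%). The split depends on scale. The median difference of all tested genes was −0.72 as deposited, −0.30 after quantile normalisation and 0.08 when each array was centred on its median, and on the centred scale 4986 genes (39.4%) were called higher in liver and 4253 (33.6%) in spleen. Genes that were 4-fold on all 3 scales numbered 786 in liver (6.22%) and 1046 in spleen (8.28%). A small difference is therefore read below against the all-gene median. Counts of a list are read against the shares of all tested genes, 58.4% in spleen and 19.4% in liver.

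**Figure D1:**
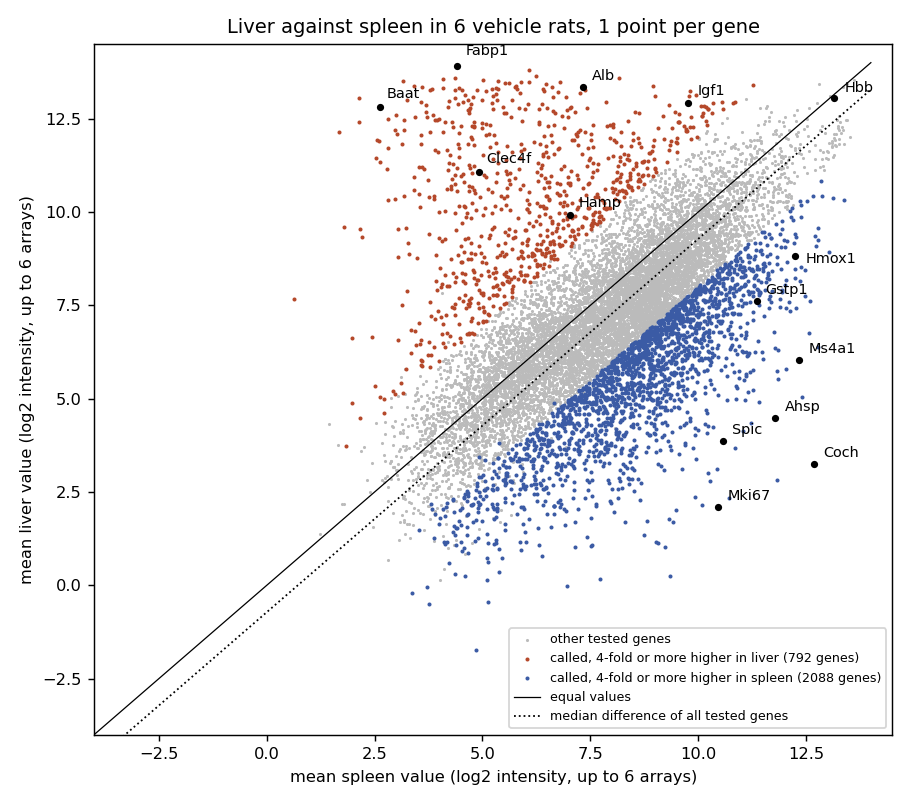
Mean log2 intensity in spleen (horizontal) and liver (vertical) of each tested gene in 6 vehicle rats; red and blue points are the 792 and 2088 genes at least 4-fold higher in liver and spleen, the solid line marks equal values and the dotted line the all-gene median difference of −0.72. Fabp1 and Baat lie far above the line, Coch and Ms4a1 far below it, and Hbb on it.

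The largest liver excess with values on all 12 arrays was that of Baat, which joins bile acids to glycine or taurine. Liver values of Baat ran from 12.73 to 12.88 with a median of 12.80, and its spleen values from −1.72 to 5.39 with a median of 3.58. The groups do not overlap, and the difference of Baat was 10.18 ± 0.95 (SE, 6 rats; limma, adjusted p = 5.8e-05). Because its spleen values lie at the bottom of the scale, the size depends on how low values are treated: with 16 added to every intensity and blanks at 0 the difference of Baat was 8.01. Next came Mug1, a plasma protease inhibitor (9.75), Fabp1, the liver fatty acid carrier (9.51), Fga and Fgg, 2 chains of fibrinogen (9.48 and 9.47), Apob, the protein of very low density lipoprotein (9.48), and Obp3 (9.38), C8a of the complement attack complex (9.29), the oestrogen sulphotransferase Sult1e1 (9.22) and Fbp1 of gluconeogenesis (9.11). The list of 15 closed with Spink1l, Arg1, Serpina3l, Spp2 and Cyp2c23 at 8.68 to 9.06.

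At the other end stood Coch, known as cochlin, a matrix protein of the inner ear that follicular dendritic cells also make. In spleen Coch ran from 12.54 to 12.83 with a median of 12.71, and in liver from 0.04 to 4.41 with a median of 3.80. The difference of Coch was −9.43 ± 0.55 (SE, 6 rats; limma, adjusted p = 5.56e-06), or −7.88 with 16 added. It was followed by the phosphatase Ptp4a3 (−8.37), the B cell adaptor Stap1 (−8.21), Trim59 (−7.93), the leukocyte actin protein Coro1a (−7.34), the α-globin chaperone Ahsp (−7.31) and the lymphocyte phosphatase Ptpn22 (−7.20). Ripor2, Hmgn3, Spic, B3gnt5, Ighvl1, Cr2, Ms4a1 and Ighl2 completed the 15 at −6.90 to −6.24. In the 30 genes of both ends every rat differed in the same direction, which choosing the largest differences favours.

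Plasma proteins were the most uniformly liver-rich group. All 33 tested members of the list of carriers and apolipoproteins were higher in liver, 31 of them 4-fold, with a median difference of 7.39 against −0.72 for all genes. Fetub, a fetuin of plasma, had liver values of 13.43 to 13.55 and 4 spleen values of 1.09 to 4.60 (10.35 ± 0.61). Alb ran from 13.19 to 13.50 in liver and from 5.84 to 9.12 in spleen (6.02 ± 0.47; limma, adjusted p = 2.27e-05). The low end of the list was held by Selenop, the selenium carrier, at 12.62 to 12.99 in spleen and 13.38 to 13.48 in liver (0.63 ± 0.07), and Apoe, which macrophages also make, differed by 2.13 ± 0.12 with spleen values of 10.78 to 11.74. Of 18 tested coagulation factors and inhibitors 17 were higher in liver, all 17 of them 4-fold, with a median of 7.71. A2m, a broad protease inhibitor of the same list, was the exception, with liver values of 5.70 to 8.11 and spleen values of 7.10 to 7.50 that overlap (−0.61 ± 0.28; adjusted p = 0.0848, limma).

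Complement split by component. Of 22 tested genes 16 were higher in liver and 6 in spleen. The liver side held the attack complex and the lectin and control proteins, such as C9 (7.64 ± 0.27), Mbl2 (7.24 ± 0.10), C5 (7.47 ± 0.18) and Cfi (8.30 ± 0.08). The spleen side held the 3 chains of C1q, C1qa, C1qb and C1qc, at −2.21, −2.19 and −2.28, properdin, Cfp (−2.72), the alternative pathway protease Cfd (−3.92) and the C5a receptor C5ar1 (−1.48). The 3 C1q chains stood at 9.17 to 10.49 in liver and 11.72 to 12.67 in spleen over all arrays, with no overlap. The proteases that bind C1q had smaller differences that depend on scale: C1r differed by 0.60 ± 0.09 and C1s by 0.45 ± 0.10, at 0.23 and −0.08 after quantile normalisation, not called there, and at 1.40 and 1.25 on the centred scale, called there.

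The urea cycle and amino acid breakdown were liver-rich in 33 of 34 tested genes, 31 of them 4-fold, with a median of 5.87. Cps1, the first urea cycle enzyme, ran from 13.18 to 13.33 in liver and from 4.12 to 5.32 in spleen (8.39 ± 0.16; limma, adjusted p = 1.31e-07). Arg1, which releases urea, differed by 8.90 ± 0.19, and Tdo2, the first enzyme of tryptophan breakdown, by 8.33 ± 0.18. The 1 gene higher in spleen was Glul, glutamine synthetase, at 10.89 to 11.19 in liver and 12.01 to 12.34 in spleen (−1.13 ± 0.10; limma, adjusted p = 4.42e-05). In liver this enzyme is known from a narrow layer of hepatocytes around the central veins, while macrophages and other cells carry it elsewhere. All 14 tested genes of glucose and glycogen metabolism were higher in liver, with a median of 2.93 and a range of 0.79 to 9.11, the highest being Fbp1. Pck1, which controls gluconeogenesis, differed by 6.81 ± 0.20.

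In bile acid synthesis and transport, 23 of 24 genes were higher in liver (median 4.94). The uptake carriers Slc10a1 and Slco1b2 differed by 8.05 ± 0.19 and 7.56 ± 0.14, and the 1 member not called stood at 0.78. Of 32 tested cytochrome P450 genes and their reductase partners, 27 were higher in liver and 4 in spleen (median 6.47). Cyp2d2 ran from 13.06 to 13.17 in liver and from 4.08 to 5.04 in spleen. Those higher in spleen were Cyp1b1 (−1.61), Cyp2s1 (−1.72), Cyp2u1 (−1.96) and Cyp4f5 (−1.96), of which the first 3 are known as forms found outside the liver. They were lower in liver on all 3 scales, with centred differences of −0.81 to −1.16.

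Conjugating enzymes were higher in liver in 31 of 38 tested genes and in spleen in 3 (median 3.13). Sult1c3 differed by 7.97 ± 0.11 and Ugt2b15 by 8.22 ± 0.12 in the 3 rats with both values. Gstp1, the pi-class glutathione transferase, which adult rat hepatocytes are known to lack, went the other way: 7.36 to 7.82 in liver and 11.19 to 11.57 in spleen, a difference of −3.73 ± 0.09 (limma, adjusted p = 2.38e-07). Nat2 (−1.36, not called on the centred scale) and Gstm5 (−1.50) were the others.

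Burning of fat and making of it differed in pattern. Of 26 tested oxidation genes 25 were higher in liver and none in spleen (median 2.52), among them Ehhadh of the peroxisome (9.29, in the 4 rats with both values), Acad11 (5.02) and Cpt1a, the gate to the mitochondrion (2.47 ± 0.12). Of 31 cholesterol and fatty acid synthesis genes 18 were higher in liver and 11 in spleen (median 1.02), and 21 and 4 on the centred scale. Fasn, fatty acid synthase, ran from 5.83 to 7.63 in liver and from 9.14 to 9.29 in spleen (−2.52 ± 0.23; limma, adjusted p = 4.97e-05), and Acly, which supplies its substrate, was also higher in spleen (−1.22 ± 0.08). The mevalonate pathway genes Mvd (−1.74), Mvk (−1.06), Pmvk (−0.97), Sqle (−0.93) and the regulator Srebf2 (−1.32, but 1.88 as the mean of its probe sets) were also higher in spleen, whereas Insig2 (4.78), Dgat2 (4.03), Sc5d (2.81) and Nsdhl (2.54) were higher in liver. On the centred scale Mvk, Pmvk and Sqle were not called, at −0.26, −0.18 and −0.13. Acaca, Lss and Msmo1, called higher in spleen at −0.57, −0.38 and −0.60, are nearer to liver than the all-gene median and turn to 0.23, 0.42 and 0.19 on the centred scale.

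Among 22 tested transcription factors of hepatocytes, 19 were higher in liver and none in spleen (median 2.94). Hnf4a ran from 11.86 to 12.27 in liver and from 4.36 to 5.69 in spleen (6.96 ± 0.21; limma, adjusted p = 4.37e-07). Creb3l3 (6.94), Nr5a2 (7.80), Foxa2 (5.32) and Nr1i3 (4.45) were alike in direction. The other 3 were not called. In the growth hormone and IGF axis the receptor Ghr (5.11 ± 0.12), Igf1 (3.16 ± 0.07), Igfbp1 (8.70) and Igfbp4 (3.47) were higher in liver, while the receptor Igf1r was higher in spleen (−1.78 ± 0.15), so that the 16 tested genes had a median of 0.05.

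**Figure D2:**
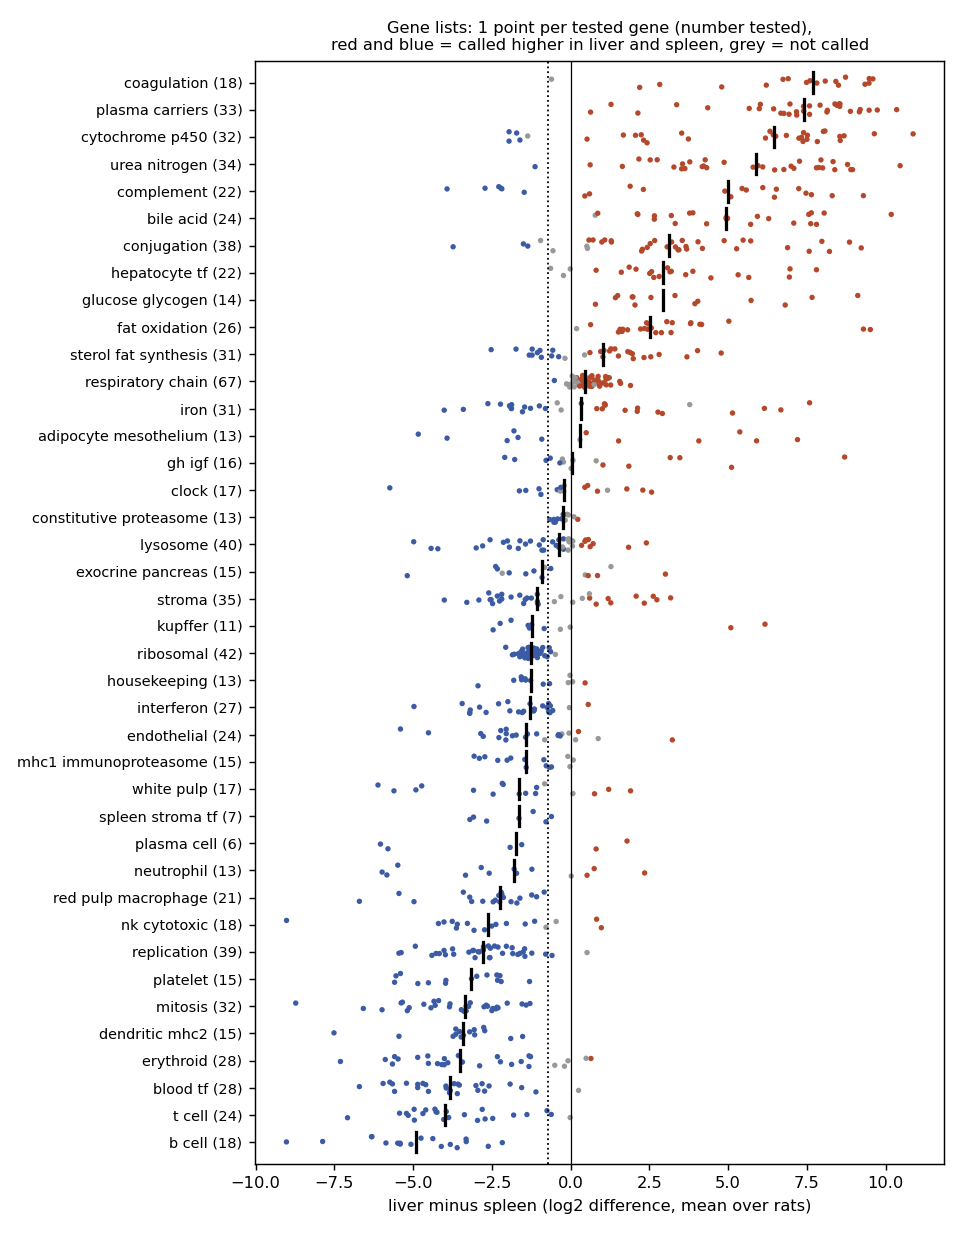
Liver minus spleen log2 difference of each tested gene in 40 gene lists, ordered by median (black bar), with red and blue points called higher in liver and spleen and grey points not called; the dotted line is the all-gene median of −0.72. The lists run from coagulation at 7.71 to B cell genes at −4.91, and complement, iron and sterol synthesis spread over both sides.

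B cell genes were the most spleen-rich list. All 18 tested members were higher in spleen and all 18 at least 4-fold, with a median of −4.91, and 16 stayed 4-fold on every scale. Ms4a1, which encodes CD20, ran from 12.13 to 12.57 in spleen and from 5.66 to 6.43 in liver (−6.31 ± 0.12; limma, adjusted p = 1.39e-07). Cr2, the complement receptor of B cells and follicular dendritic cells, differed by −6.32 ± 0.17, and Cd79b of the B cell receptor by −9.02 ± 0.79 over 5 rats. Antibody-secreting cells gave a mixed list: the J chain gene Jchain (−5.80 ± 0.10) and Mzb1 (−6.04 ± 0.15) were far higher in spleen, whereas Xbp1 and Sdc1, which hepatocytes also express, were higher in liver at 0.81 ± 0.11 and 1.79 ± 0.10.

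T cell genes were higher in spleen in 23 of 24 tested cases (median −3.99). Tcf7 ran from 10.62 to 11.25 in spleen and 5.45 to 6.06 in liver (−5.21 ± 0.07), and Lck differed by −4.97 ± 0.19. Cd3d and Cd8a were blank on all 6 liver arrays and measured on all 6 spleen arrays. Cd3e, at 5.76 to 7.42 in liver and 8.94 to 9.62 in spleen, had a smaller gap of −2.47 ± 0.24. Genes of natural killer and cytotoxic cells were higher in spleen in 14 of 18 tested cases (median −2.62). Klrb1a was at −4.20 ± 0.12 and Prf1, perforin, at −3.63 ± 0.17. Klrg1 and Ncr3 were higher in liver, by 0.97 ± 0.29 and 0.82 ± 0.12, with spleen values of 5.33 to 6.82 and 5.89 to 6.41. Without rat 1001 Klrg1 was no longer called (0.89; limma, adjusted p = 0.0504).

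The signals that place lymphocytes in the white pulp were higher in spleen in 12 of 17 tested genes and in liver in 3. Of all tested genes 58.4% were higher in spleen and 19.4% in liver. The list median was −1.63, and −0.84 on the centred scale. Cxcl13, the chemokine of B cell follicles, ran from 10.65 to 11.50 in spleen and from 4.34 to 5.74 in liver (−6.12 ± 0.26; limma, adjusted p = 1.44e-06). Its T zone counterparts were Ccl19 at −2.46 ± 0.10 and Ccl21, which stood at 12.28 to 12.60 in spleen and had only 2 liver values, 2.32 and 3.03. The ligand Ltb was higher in spleen (−5.61 ± 0.08) but its receptor Ltbr, carried by stromal and epithelial cells, was higher in liver, at 10.57 to 10.69 against 8.53 to 9.03 (1.90 ± 0.10; limma, adjusted p = 2.91e-06). The other genes of this list higher in liver were Clu (1.21) and Cxcl12 (0.76), and the 3 probe sets of Cxcl12 disagree, from −1.92 to 0.76.

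Red cell precursor genes were higher in spleen in 23 of 28 tested cases (median −3.50). Ahsp, the chaperone of free α-globin, ran from 11.01 to 12.33 in spleen and 2.75 to 5.96 in liver (−7.31 ± 0.31; limma, adjusted p = 1.42e-06). Hemgn differed by −5.89 ± 0.41, Alas2, the erythroid start of haem synthesis, by −4.02 ± 0.11, and Tal1 by −5.66 ± 0.28. The factor Klf1 was blank in every liver and ran from 8.62 to 10.38 in spleen. The globin transcript Hbb did not share this gap: it stood at 12.74 to 13.33 in liver and 12.34 to 13.62 in spleen, near the top of the scale (−0.09 ± 0.16; adjusted p = 0.643, limma), and its centred difference was 0.71. Another globin, Hba-a3, differed by −1.32 ± 0.12. Ank1, an ankyrin of the red cell membrane that other tissues also carry, was the 1 member higher in liver (0.64 ± 0.09).

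All 21 tested genes of red pulp macrophages were higher in spleen (median −2.25). Spic, the factor that these macrophages need, ran from 10.39 to 10.84 in spleen and 2.12 to 4.49 in liver (−6.71 ± 0.30; limma, adjusted p = 1.81e-06). Vcam1 (−4.97 ± 0.12), the haem oxygenase Hmox1 (−3.41 ± 0.12) and the lysozyme Lyz2 (−3.20 ± 0.11) followed. For comparison, 58.4% of all tested genes were higher in spleen and 19.4% in liver (33.6% and 39.4% on the centred scale). Of the 11 Kupffer cell genes (median −1.24) 7 were higher in spleen (6 on the centred scale) and 2 in liver (4 on the centred scale). The 2 were Clec4f, the Kupffer lectin, at 10.87 to 11.32 against 3.83 to 5.32 (6.17 ± 0.19; limma, adjusted p = 4.13e-07), and C6 (5.08 ± 0.29), a complement component made by hepatocytes too. Genes that both macrophage types carry were higher in spleen, among them Csf1r (−2.46), Cd163 (−2.24), the iron exporter Slc40a1 (−1.89) and Cd5l (−0.84); Cd5l fell to −0.04 on the centred scale.

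Platelet and megakaryocyte genes were higher in spleen in all 15 tested cases (median −3.15), led by Pf4 at −5.55 ± 0.17. Neutrophil genes were higher in spleen in 9 of 13 and in liver in 3 (median −1.79), against 58.4% and 19.4% of all tested genes. S100a9 ran from 10.09 to 12.42 in spleen and from 3.64 to 5.82 in liver (−5.99 ± 0.23). Ceacam1, which hepatocytes carry, was higher in liver (2.35 ± 0.13). MHC class II and dendritic cell genes were higher in spleen in all 15 tested cases (median −3.40), with RT1-Ba at 8.74 to 9.40 in liver and 12.41 to 12.96 in spleen and Itgax, which encodes CD11c, at −5.45 ± 0.51 over 4 rats.

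Transcription factors of blood cells were higher in spleen in 27 of 28 tested genes, with a median of −3.84, and 7 more were measured on all spleen arrays and on at most 2 liver arrays. Bcl11a differed by −5.96 ± 0.26 and Bhlhe41 by −5.74 ± 0.27, while the 1 member not called stood at 0.25. All 7 tested factors of the spleen's own stroma and embryonic anlage were higher in spleen, 6 after quantile normalisation and 5 on the centred scale. Wt1 (−3.20 ± 0.15), Tcf21 (−3.08 ± 0.22) and Nkx2-5 (−2.67 ± 0.25), all known from spleen development, led them. Nkx2-5, better known from the heart, ran from 7.94 to 8.74 in spleen and from 4.73 to 6.65 in liver. Hoxa5, at −0.78, was close to the all-gene median and at 0.01 on the centred scale.

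Division genes were on the spleen side. All 32 tested mitosis genes and 38 of 39 replication genes were higher in spleen, with medians of −3.35 and −2.77. Cdk1, the kinase that starts mitosis, ran from 8.72 to 9.64 in spleen and 2.95 to 4.87 in liver (−5.19 ± 0.22; limma, adjusted p = 1.34e-06), and Mcm3 of the replicative helicase differed by −4.93 ± 0.31. Mki67 had values on only 3 liver arrays, the highest at 4.83, and ran from 9.74 to 11.02 in spleen. The counts were close to these on the centred scale, with 31 mitosis and 35 replication genes called higher in spleen.

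Several enzymes and carriers come in alternative forms, of which 23 sets were examined. The glucose carrier Slc2a2, a low-affinity form, was higher in liver by 7.66 ± 0.19, while Slc2a1 and Slc2a3 were higher in spleen, at −3.60 ± 0.37 and −1.64 ± 0.15. Of the synthases of S-adenosylmethionine, Mat1a ran from 13.03 to 13.23 in liver and 5.11 to 5.33 in spleen (7.88 ± 0.08), and Mat2a from 8.39 to 9.12 and 11.06 to 11.25 (−2.31 ± 0.09). The first step of haem synthesis split likewise, with the housekeeping form Alas1 at 2.12 ± 0.17 and the erythroid Alas2 at −4.02 ± 0.11.

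Glycogen phosphorylase was higher in liver as Pygl (1.42 ± 0.13) and in spleen as the brain form Pygb (−3.78 ± 0.45). Glycogen synthase split by detection: the liver form Gys2 had 6 liver values of 9.21 to 10.26 and 2 spleen values of 1.78 and 2.82, and the muscle form Gys1 had 6 spleen values of 5.65 to 6.50 and no liver value. Lactate dehydrogenase was higher in liver as Ldha (1.35 ± 0.08) and in spleen as Ldhb (−3.47 ± 0.11). The bifunctional regulators of glycolysis gave Pfkfb1 at 2.92 ± 0.46 and Pfkfb3 at −3.55 ± 0.27. The hexokinases Hk1 (−2.65 ± 0.17) and Hk2 (−1.76 ± 0.20) and the platelet phosphofructokinase Pfkp (−3.16 ± 0.08) were higher in spleen; the liver form Pfkl, at −0.68 ± 0.09, matched the all-gene median and turned to 0.11 on the centred scale.

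The transferrin receptors divided into Tfr2, an iron sensor of hepatocytes (5.14 ± 0.34), and Tfrc, the uptake receptor (−1.28 ± 0.28, and −0.48 and not called on the centred scale). Among the proteasome's catalytic subunits the standard Psmb5 and Psmb7 were not called, at −0.07 ± 0.08 and 0.10 ± 0.08 (limma, adjusted p = 0.439 and 0.272), though Psmb5 was at 0.72 on the centred scale and at 3.74 as the mean of its probe sets. Their inducible counterparts Psmb8 and Psmb10 were higher in spleen at −1.90 ± 0.14 and −2.73 ± 0.12, as was Psmb9 at −2.90 ± 0.10. Of the Rac GTPases, Rac2 of blood cells differed by −3.85 ± 0.09 and the general Rac1 by −0.38 ± 0.07, which became 0.42 when arrays were centred. Not all sets split: the cyclins Ccnd1, Ccnd2 and Ccnd3 were all higher in spleen (among them −1.51 for Ccnd1, not called on the centred scale, and −3.40 for Ccnd2), the acyl-CoA synthetases Acsl1 and Acsl4 were both higher in liver (4.10 and 2.63), and Arg2 was at −0.77, next to the all-gene median, and at 0.03 on the centred scale.

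**Figure D3:**
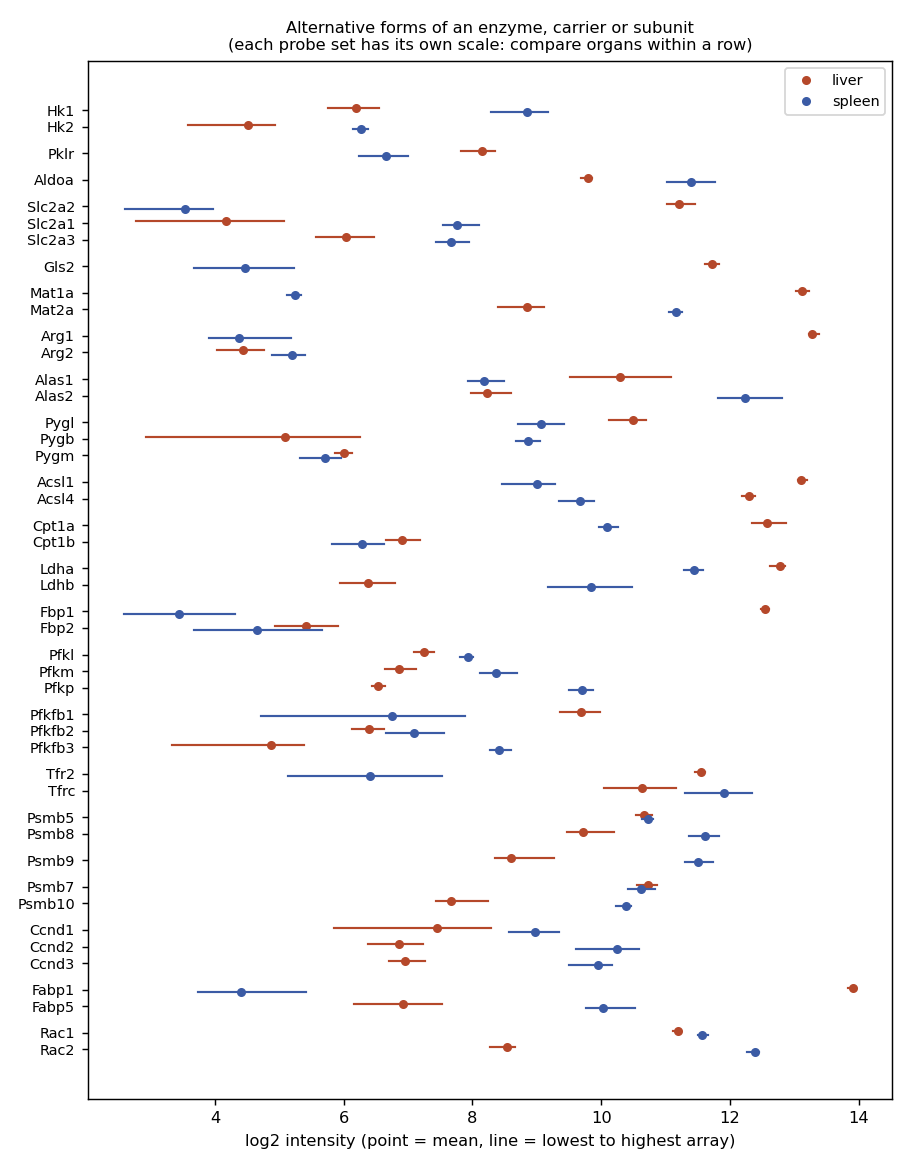
Log2 intensity of alternative forms in liver (red) and spleen (blue), as the mean with the lowest and highest array of 6 rats (fewer where values are blank). Within a row the organs can be compared, for example Mat1a at 13.03 to 13.23 against 5.11 to 5.33 and Mat2a with the opposite order; rows differ in probe sets and are not comparable with each other.

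Iron handling fell into parts. Of 31 tested genes 15 were higher in liver and 13 in spleen. The scavengers Hp, which binds free haemoglobin, and Hpx, which binds haem, were higher in liver by 6.67 ± 0.21 and 7.58 ± 0.09, as was Hjv, a co-receptor that controls hepcidin (6.15 ± 0.14). The recycling enzyme Hmox1 and the exporter Slc40a1 were higher in spleen, as given above. Of 40 lysosomal genes 8 were higher in liver, 23 in spleen and 9 not called as deposited (median −0.38), but 22 were higher in liver and 12 in spleen on the centred scale (median 0.42). After quantile normalisation 12 were higher in liver and 24 in spleen. The deposited counts are near the shares of all tested genes, 19.4% in liver and 58.4% in spleen. On the centred scale those shares were 39.4% and 33.6%. Ctse (−4.98 ± 0.08), Laptm5 (−4.43 ± 0.08) and Acp5 (−4.22 ± 0.10), known from blood cells and macrophages, led the spleen side.

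Of 27 tested interferon-responsive genes 25 were higher in spleen (median −1.29; 17 of them on the centred scale). Rsad2 ran from 11.11 to 12.41 in spleen and from 6.27 to 7.35 in liver (−4.98 ± 0.22; limma, adjusted p = 1.76e-06), whereas Bst2 was not called, at 11.37 to 12.05 and 11.46 to 11.87, and was at 0.76 on the centred scale. MHC class I processing genes were higher in spleen in 12 of 15 and in liver in 0 as deposited, and in 8 and 4 on the centred scale. B2m, the class I light chain, stood at 13.31 to 13.55 on every array (−0.02 ± 0.07). Endothelial genes (median −1.40) were higher in spleen in 17 of 24 and in liver in 2, but in 13 and 9 on the centred scale. Plvap differed by −4.52 ± 0.27 and Pecam1 by −2.78 ± 0.09. The sinusoid receptors went both ways, Lyve1 at 3.23 ± 0.13 and Stab2 at −2.22 ± 0.16. Stellate cell genes did as well, with Lrat (3.17 ± 0.14) and Reln (2.34 ± 0.20) higher in liver and Des (−2.19 ± 0.11) higher in spleen.

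General cell machinery showed narrow, opposed shifts. All but 1 of the 42 ribosomal protein genes were called higher in spleen (median −1.26), as were 33 of 42 on the centred scale (median −0.46). Rps15 ran from 11.02 to 11.21 in liver and from 12.71 to 13.05 in spleen. Of 67 respiratory chain and ATP synthase genes 48 were higher in liver and 1 in spleen (median 0.46), 44 and 9 after quantile normalisation (median 0.36), and 67 and 0 on the centred scale (median 1.25). Ndufab1 led with 1.90 ± 0.07. The 13 constitutive proteasome subunits had 8 genes called higher in spleen and 1 in liver as deposited, 7 and 0 after quantile normalisation, and 0 and 12 on the centred scale, so their direction cannot be stated. Genes often used as references were not level between these organs. Of 13, 9 were called higher in spleen and 1 in liver (6 and 4 on the centred scale). The shares of all tested genes were 58.4% and 19.4% (33.6% and 39.4% on the centred scale). After quantile normalisation 12 of the 13 were called higher in spleen and 1 in liver, against 5729 and 3489 of all 12639 genes. Whether this short list differs from all genes was not tested. Tubb5 was at −2.94 ± 0.14, Polr2a at −1.81 ± 0.09 and Rplp0 at −1.43 ± 0.06. The 3 not called were B2m, Pgk1 (−0.08 ± 0.08) and Eef1a1 (0.06 ± 0.07), and these 3 were at −0.43 to −0.23 after quantile normalisation and at 0.72 to 0.86 on the centred scale.

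**Figure D4:**
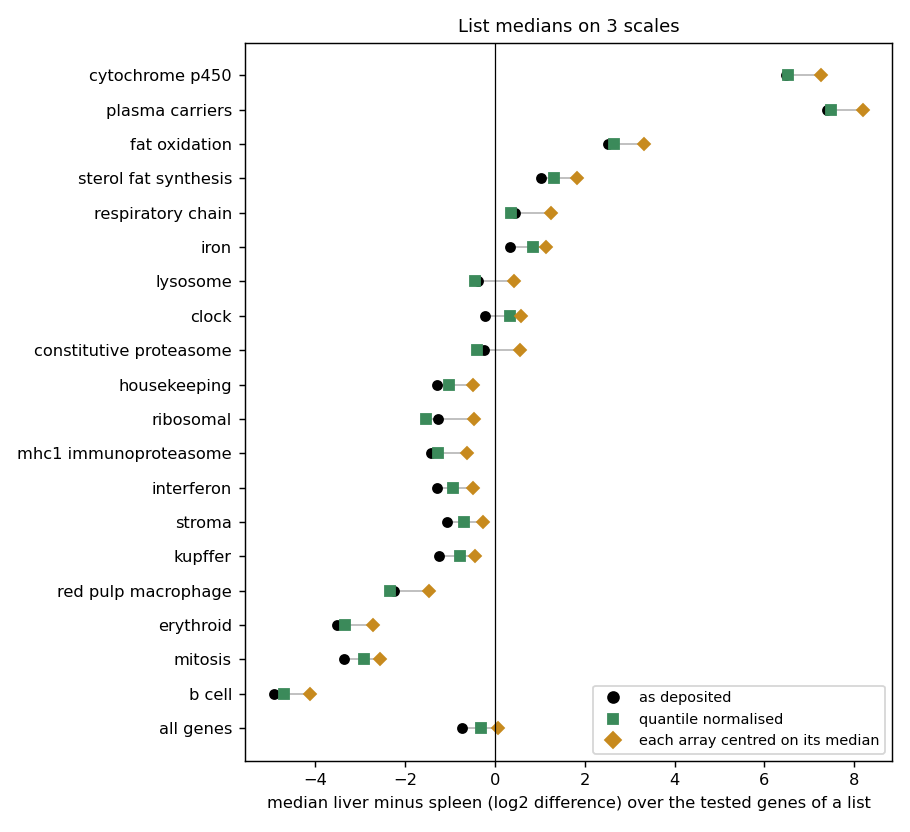
Median liver minus spleen log2 difference of 19 gene lists and of all genes on 3 scales: as deposited (circles), after quantile normalisation (squares) and with each array centred on its median (diamonds). Lists such as B cell genes or plasma carriers keep their side, and lysosome, clock and constitutive proteasome genes change side between scales.

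Some genes had values in 1 organ and blanks throughout the other. There were 11 of 14201 genes with 6 liver and no spleen values (0.0775%) and 433 with 6 spleen and no liver values (3.05%). The liver arrays hold more blanks than the spleen arrays, as given above, and the part of that in these counts was not tested. The liver-only genes included Apoa2 (13.15 to 13.25), Cyp2d3 (12.67 to 12.77), Apoa4 (12.34 to 12.75), Cyp2c22 (11.93 to 12.84), the tyrosine transaminase Tat (11.44 to 12.22), Akr1c1 (9.80 to 10.73) and the tight junction protein Cldn3 (8.79 to 9.16). Vxn, at 0.54 to 5.39, shows that a gene can be in this set at the bottom of the scale. Of the 433 spleen-only genes, 118 had a mean of at least 7 and 30 of at least 9. The highest were Itgad, an integrin of red pulp macrophages (10.94 to 11.08), Fabp4, a fatty acid carrier of fat cells and macrophages (10.64 to 11.23), Ly86 (10.50 to 10.90), Cd9 (10.47 to 10.88) and Rhoh (10.26 to 10.51).

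Promoter sequence was compared next, since the 2 sets of genes are under different factors in textbook accounts. RefSeq promoters (GRCr8, 250 bases before to 50 after the start) matched 10073 tested genes, of which 644 were 4-fold higher in liver and 1629 in spleen. Liver promoters held a median of 10 CpG dinucleotides, spleen promoters 19, the 7800 other tested genes 20 and all 27457 RefSeq promoters a median of 7. Promoters with under 5 CpG made up 28% of the liver set, 14.4% of the spleen set and 9.88% of the other tested genes. The letters TATAAA, read on the gene's strand, were in 10.7%, 5.59%, 5.05% and 9.08% of these sets in the same order.

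A form of the site of HNF1, a hepatocyte factor, was searched on both strands; its letters are the capitals of the sequences that follow. It was found in 14 liver promoters (2.17%), 1 spleen promoter (0.0614%), 15 of the other tested (0.192%) and 95 of all (0.346%). Of the 14, 5 are shown because their genes belong to functions described above: plasminogen, a sulphotransferase, complement C5, an IGF binding protein and kallistatin. Each run gives the 100 bases before the annotated start on the gene's strand, with the match in capitals.
Plg, chr1:50915407-50915506, minus strand: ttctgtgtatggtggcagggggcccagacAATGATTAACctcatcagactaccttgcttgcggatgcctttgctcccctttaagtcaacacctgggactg
Sult2a6, chr1:84097809-84097908, minus strand: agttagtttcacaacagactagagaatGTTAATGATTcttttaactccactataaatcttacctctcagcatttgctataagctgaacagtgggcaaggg
C5, chr3:38759469-38759568, minus strand: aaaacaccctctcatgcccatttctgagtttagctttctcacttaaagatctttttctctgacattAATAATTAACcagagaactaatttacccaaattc
Igfbp1, chr14:86261177-86261276, plus strand: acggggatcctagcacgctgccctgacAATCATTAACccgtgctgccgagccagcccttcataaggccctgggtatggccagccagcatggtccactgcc
Serpina4, chr6:128764682-128764781, plus strand: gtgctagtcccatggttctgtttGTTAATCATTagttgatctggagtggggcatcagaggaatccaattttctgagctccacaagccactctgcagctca

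Counted from the start, the first base of the match lies at −71 in Plg, −73 in Sult2a6 and Igfbp1, −34 in C5 and −77 in Serpina4. Their organ differences were 7.60 ± 0.17 for Plg, 5.47 ± 0.30 for Sult2a6, 7.47 ± 0.18 for C5, 8.70 ± 0.43 for Igfbp1 and 5.72 ± 0.07 for Serpina4. The letters CAAAGTCC, a form of the HNF4 site, were in 4.19% of liver, 1.04% of spleen, 1.24% of other tested and 1.38% of all promoters.

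The letters GAGGAAGT, the core of the site of ETS factors such as PU.1 of blood cells, were searched likewise. They were in 59 spleen promoters (3.62%), 8 liver promoters (1.24%), 2.4% of the other tested and 2.44% of all. Of these, 5 genes of lymphocytes and macrophages with a match within 100 bases of the start are shown in the same way.
Cd37, chr1:104860785-104860884, minus strand: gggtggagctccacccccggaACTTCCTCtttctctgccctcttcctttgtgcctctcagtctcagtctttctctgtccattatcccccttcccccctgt
Ctse, chr13:45644115-45644214, plus strand: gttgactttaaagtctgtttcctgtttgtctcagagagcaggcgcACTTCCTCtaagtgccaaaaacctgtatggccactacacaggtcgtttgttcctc
Cd5, chr1:216811210-216811309, minus strand: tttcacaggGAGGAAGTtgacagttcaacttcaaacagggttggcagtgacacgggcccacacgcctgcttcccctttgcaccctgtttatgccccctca
Cd53, chr2:197087897-197087996, minus strand: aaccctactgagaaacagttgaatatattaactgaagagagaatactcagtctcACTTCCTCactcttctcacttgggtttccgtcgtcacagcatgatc
Vav1, chr9:2248855-2248954, plus strand: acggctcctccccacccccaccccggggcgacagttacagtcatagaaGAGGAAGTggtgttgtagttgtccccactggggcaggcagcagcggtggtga

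Their differences were −5.49 ± 0.28 for Cd37, a tetraspanin of B cells, −4.98 ± 0.08 for Ctse, −4.31 ± 0.09 for Cd5 of T cells, −4.09 ± 0.09 for the leukocyte tetraspanin Cd53 and −3.47 ± 0.11 for Vav1 of lymphocyte signalling. The E2F letters TTTCCCGC or TTTGGCGC, known from genes of DNA replication, were searched on both strands. They were in 3.81% of spleen and 1.09% of liver promoters, against 2.59% of the other tested genes and 1.53% of all. The part of base composition in the shares of letters was not tested. The letters AGATAA, the core of the site of GATA factors, known from red cell precursors, were in 9.32% of liver, 7% of spleen, 6.46% of other tested and 11.3% of all promoters. The letters TTGCGCAA, a form of the site of C/EBP factors, known from hepatocytes and myeloid cells, were in 1 liver promoter (0.155%), 10 spleen promoters (0.614%), 0.179% of the other tested genes and 0.197% of all. Both were searched on both strands. The GATA share was higher in the liver set and the C/EBP share in the spleen set. A match of letters is a description of the window and does not show binding, and these genes were chosen after their values and matches were seen.

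Rats differed little within an organ. The median SD over the 6 rats, among 11407 genes with 12 values, was 0.209 in liver and 0.205 in spleen. With a mean of at least 6, 150 genes had an SD of at least 1 in liver, 86 in spleen and 7 in both. Slpi, a leukocyte protease inhibitor, was low in rat 1001 in both organs: 3.15 in liver against 7.83 to 9.02 in the other 5 rats, and 9.29 in spleen against 12.32 to 13.01. RT1-Bb, an MHC class II chain, was low in rat 1003 in both, at 5.54 against 7.80 to 8.67 in liver and 7.42 against 11.86 to 12.65 in spleen. In the same rat the class I gene RT1-N2 was blank in liver and at 3.89 in spleen, against 7.85 to 9.07 in the others, RT1-CE5 was lowest in both organs, and the interferon-responsive Ifit1 was at 4.85 in liver and 6.78 in spleen. Fam111a formed 2 sets shared by the organs: rats 1001, 1003 and 3005 stood at 3.42 to 4.54 in liver and 8.74 to 9.29 in spleen, and rats 1005, 3001 and 3003 at 8.15 to 8.37 and 11.43 to 11.91. Ifit1 and RT1-CE5 were chosen after their values were seen.

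Other genes varied in liver alone. Hamp, the iron hormone hepcidin, ran from 7.79 to 12.57 in liver, with rats 1005 and 3001 low, and from 6.37 to 7.31 in spleen, with a mean difference of 2.91 ± 0.65. Gadd45g ran from 6.49 to 11.05, Cdh17 from 6.60 to 10.18 and Ugt2b from 8.27 to 12.79. Cish, a gene induced by growth hormone signalling through STAT5, was at 6.13 to 6.37 in the livers without wood and 7.81 to 9.33 in those with wood, against 7.12 to 7.70 in spleen; it was seen after its values were known, and its housing term gave an adjusted p of 0.11 (limma, 2.08).

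**Figure D5:**
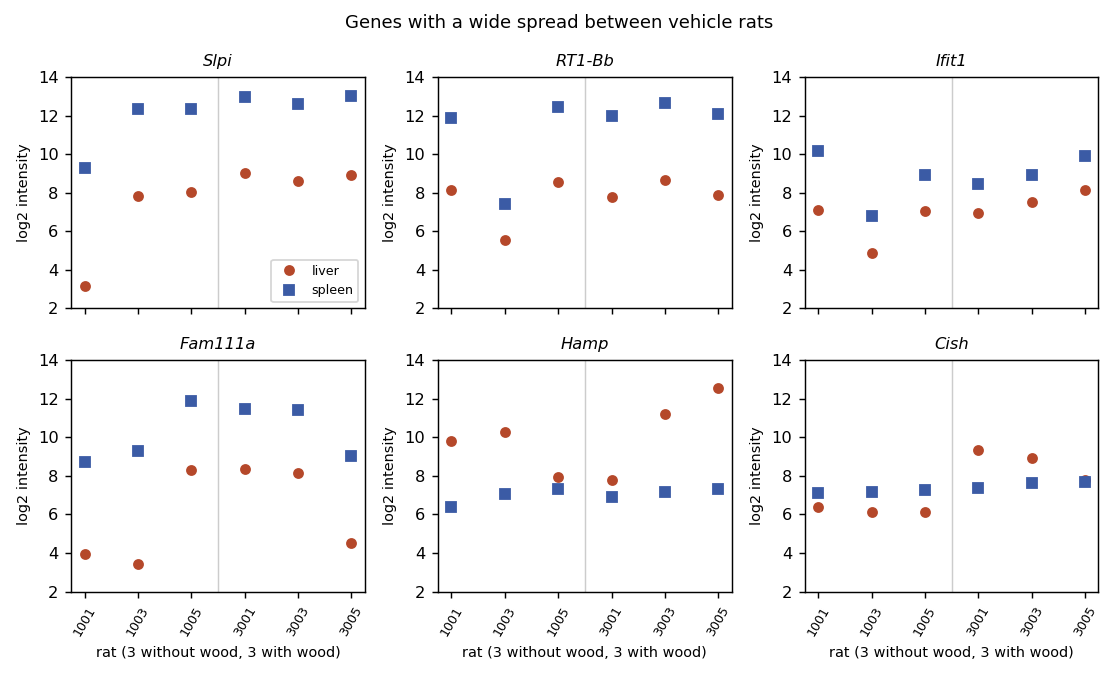
Log2 intensity of 6 genes in liver (red circles) and spleen (blue squares) of each vehicle rat, with rats without wood to the left of the grey line. Slpi is low in both organs of rat 1001, RT1-Bb and Ifit1 in both organs of rat 1003, Fam111a in 3 rats, and Hamp and Cish spread in liver only.

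Whether the organ difference itself changed with housing was tested as wood minus no wood, 3 rats against 3. Of 12094 genes tested 35 were called (0.289%), and 2379 had an unadjusted p under 0.05. In 33 of the 35 the spleen moved more than the liver, with median absolute shifts of 1.89 and 0.14. Sardh, a sarcosine dehydrogenase of mitochondria, was at 5.14 to 5.66 in the spleens without wood and 7.61 to 7.97 in those with wood, and at 8.71 to 9.13 in all livers, a term of −2.51 ± 0.12 (limma, adjusted p = 0.009). Pmfbp1 (−2.95), Foxe3 (−2.93), Myrf (−2.96) and Pdgfc (−3.07) followed it, and Amy1 (3.70), Stn1 (2.14), Csn2 (2.98), Obp3 (3.28) and Kng2l1 (2.00) went the other way. Leaving out any 1 rat left 0 to 6 genes called: 0 without 1001, 1005 or 3005, 5 without 1003 or 3003 and 6 without 3001. Among the vehicle rats housing coincides with the count of blanks in spleen given above. The drug rats without wood did not share that split throughout, with 1067, 1021 and 1798 spleen blanks in rats 2001, 2003 and 2005. The part of the split in these terms was not tested.

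The organ difference was also compared with that of 6 cyclophosphamide rats, with housing as a covariate. It differed in 3782 of 12380 genes (30.5%; limma, adjusted p under 0.05), and 2124 of these lay more to the liver side in vehicle rats. Plasma carriers had a median of 7.39 in vehicle and 7.83 in drug rats, with 11 of 30 called, 7 of them more to the liver side in vehicle rats and 4 in drug rats. Fat oxidation genes had medians of 2.52 and 1.90, with 14 of 26 called, 13 of them more to the liver side in vehicle rats. B cell genes had medians of −4.75 and −2.02 over 17 genes, with 13 called, all of them more spleen-rich in vehicle rats. Red cell precursor genes had medians of −3.50 and −0.22, with 18 of 26 called, and mitosis genes −3.32 and −1.73, with 26 of 31 called, each in that direction. T cell genes had medians of −3.95 and −3.69, with 5 of 23 called, 3 of them more to the liver side in vehicle rats and 2 in drug rats. Red pulp macrophage genes went the other way, from −2.25 in vehicle to −3.75 in drug rats, with 19 of 20 called. The median of all tested genes was −0.70 and −0.67. These lists differ in their number of genes and were not tested against each other. The counts of blanks do not follow the housing covariate. Drug spleens 2001 and 2003, without wood, had 1067 and 1021 blanks and 2005 had 1798, against 1778 to 1920 in the vehicle spleens without wood. The liver of drug rat 2003 had 6060. The part of blanks in the treatment term was not tested.

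Among single genes the smallest p belonged to Fcmr, the IgM receptor of B cells, with an organ difference of −5.41 in vehicle and −2.02 in drug rats (term −3.39 ± 0.13; limma, adjusted p = 6.28e-07). The 6 vehicle spleens lay between 11.73 and 11.82 for Fcmr, and the livers between 6.25 and 6.44. Car2, a carbonic anhydrase of red cells, went from −4.09 to 0.51 (term −4.61 ± 0.26), Cd55, a complement inhibitor, from −3.80 to −0.16 and Fcgr2b, the inhibitory antibody receptor of B cells and liver sinusoids, from −0.33 (0.46 on the centred scale) to 3.30. In the opposite sense Gbp2 went from −3.19 to −5.26, Itgb5 from −0.94 to −3.18, Bmp2 from 0.34 to −1.40, Igf1 from 3.16 to 1.71 and Dst from 0.58 to −0.72. Helz2 was at 0.24 in vehicle rats, not called there, and 1.83 in drug rats.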

How the data were processed

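The authors deposited log10 values of 30980 probe sets of an Affymetrix rat array; how probes were summarised is not stated in the labels, and the base was inferred from the span of the values. Per the labels' protocols, organs were flash-frozen and extracted with Qiazol. Values were multiplied to log2, blanks were left missing, and each gene took its probe set with the highest mean level. Probe sets naming several genes or none (436 and 9752) were left out. Within-rat liver minus spleen differences were fitted with limma 3.58.1 in R 4.3.3, with Benjamini-Hochberg adjustment over all genes tested. The animal numbers pair the organs. The deviations of a rat's 2 organs correlated at 0.006 to 0.045 over 11407 genes. In 5 of 6 rats this exceeded the r with the spleens of other rats of that housing. In rat 1001 it did not, at 0.006 against 0.016. Nothing in the labels describes repeat arrays, so n counts rats. The fit was tested on simulated data of 12639 genes, of which 100 differed by 1, 100 by 2 and 12439 not at all. Called were 71%, 75% and 0.0643% of these. For the housing term, 98, 91 and 11905 of 12094 genes were set likewise, and 10.2%, 48.4% and 0.0168% were called. In the real organ test 77.8% of genes were called. The adjustment depends on that share, so the simulated rates do not carry over to the real tests. Named genes were the 15 largest differences per direction, the leading and opposed members of each list, all alternative forms, cell type markers, the highest organ-only genes, the leading housing and treatment terms and the most variable genes; Hbb, Hba-a3, B2m, Eef1a1, Pgk1, RT1-CE5, Ifit1, Bst2, Fcgr2b, Cish, the genes with printed promoters, Apoe, Selenop, C1s, C1r and A2m were chosen after their values were seen. Members and lists were chosen with earlier results of these data known. Alternatives covered scaling, blanks, probe sets, low genes, the block, the prior, housing and each rat. Promoters are RefSeq's (GRCr8).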

Additional observations from a re-analysis of the deposited data

Results flagged for a closer look

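Among the genes named above, 467 sets of 6 arrays (1 gene in 1 organ) were examined by Dixon's ratio for an array standing apart from the other 5, and 40 had one; chance alone gives about 1 in 20 sets, but the genes include some chosen for their spread or after their values were seen, so the count is not read against that rate. The values that stood apart are given by rat and organ, and what sets them apart was not tested. In the liver of rat 1001, C1r was at 12.43 against 11.56 to 11.80, Pmvk was at 6.17 against 6.97 to 7.25 and Slpi was at 3.15 against 7.83 to 9.02. In the spleen of rat 1001, C1s was at 11.58 against 11.99 to 12.08 and Creb3l3 was at 4.47 against 5.25 to 5.37. In that spleen, Nat2 was at 5.43 against 6.19 to 6.57, Rhoh was at 10.26 against 10.44 to 10.51 and Slpi was at 9.29 against 12.32 to 13.01. There, Spp2 was at 1.60 against 4.02 to 5.34 and Tcf21 was at 9.75 against 9.05 to 9.30. In the liver of rat 1003, Ifit1 was at 4.85 against 6.94 to 8.13, RT1-Bb was at 5.54 against 7.80 to 8.67 and RT1-CE5 was at 5.38 against 6.10 to 6.51. In that liver, Rac2 was at 8.28 against 8.52 to 8.66 and S100a9 was at 3.64 against 5.06 to 5.82. In the spleen of rat 1003, RT1-Bb was at 7.42 against 11.86 to 12.65, RT1-CE5 was at 6.11 against 8.46 to 9.38 and RT1-N2 was at 3.89 against 7.85 to 9.07. In the liver of rat 1005, C5ar1 was at 6.78 against 7.22 to 7.36, Coch was at 0.04 against 3.60 to 4.41 and Foxe3 was at 6.03 against 3.78 to 4.50. In that liver, Hk2 was at 3.59 against 4.46 to 4.94. In the spleen of rat 1005, Clec4f was at 3.83 against 4.88 to 5.32 and Serpina3l was at 2.86 against 4.58 to 4.99. In the liver of rat 3001, C6 was at 8.94 against 9.78 to 10.21, Lyve1 was at 9.87 against 10.19 to 10.34 and Plvap was at 4.80 against 6.39 to 7.08. In the liver of rat 3003, C8a was at 11.62 against 11.92 to 11.98, Fabp1 was at 13.83 against 13.91 to 13.96 and Pfkfb3 was at 3.33 against 4.85 to 5.38. In the spleen of rat 3003, Itgad was at 11.08 against 10.94 to 10.98, Slc2a2 was at 2.61 against 3.54 to 3.97 and Sult1c3 was at 4.89 against 4.11 to 4.25. In the liver of rat 3005, Arg1 was at 13.39 against 13.23 to 13.27, B3gnt5 was at 4.07 against 4.92 to 5.26 and Psmb10 was at 8.24 against 7.44 to 7.68. In that liver, Psmb9 was at 9.27 against 8.35 to 8.54 and Tcf21 was at 5.16 against 6.21 to 6.60. In the spleen of rat 3005, Fasn was at 9.14 against 9.25 to 9.29 and Klrb1a was at 9.39 against 9.02 to 9.11.

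The gap between liver and spleen differed with housing in 35 genes (wood minus no wood, 3 rats against 3; limma, adjusted p under 0.05). The terms were 3.70 for Amy1, 3.28 for Obp3, 2.98 for Csn2, 2.14 for Stn1 and 2.00 for Kng2l1, and −3.07 for Pdgfc, −2.96 for Myrf, −2.95 for Pmfbp1, −2.93 for Foxe3 and −2.51 for Sardh. It differed between vehicle and cyclophosphamide rats in 3782 genes (6 rats against 6; limma). The terms, as vehicle minus drug, were −4.61 for Car2, −3.64 for Cd55 and for Fcgr2b, −3.39 for Fcmr and −1.59 for Helz2, and 2.24 for Itgb5, 2.07 for Gbp2, 1.73 for Bmp2, 1.45 for Igf1 and 1.30 for Dst.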

How the results depend on the processing

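Of 4219 values of 231 named genes under the alternatives, 4106 kept their side of the threshold and, where called, their direction. A further 50 lost the call, 27 gained one and 36, of 27 genes, reversed. A gene not called in either fit counts as kept whatever its sign, as does A2m (−0.61 as reported, 0.19 on the centred scale). The cause of the changes was not tested. With 12639 genes tested 9832 were called. Without the pairing by animal, in a fit with no replicate block, 9971 were called. Leaving out each rat gave 9353 to 9469, and testing only genes at or above the median level, which are fewer, gave 6284. The genes 4-fold higher in liver numbered 1310 after median centring. Those 4-fold higher in spleen numbered 1050 after centring, 1043 with an offset of 64, 1027 at or above the median level, and 1046 when 4-fold was asked on all 3 scales, an alternative chosen after seeing the data. Of the called genes 24.9% were higher in liver as deposited, 37.8% after quantile normalisation and 54% after centring. The housing term gave 16 genes after quantile normalisation, 1120 with an offset of 16 and 0 to 6 without 1 rat. The treatment term gave 3876, 4368 and 3146 to 3664. With values on 5 of 6 arrays against at most 1, liver-only genes numbered 20 and spleen-only genes 753; over every probe set the latter were 775.

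Median centring reversed Acaca (0.23), Arg2 (0.025), B2m (0.77), Bst2 (0.76), Fcgr2b (0.46), Hbb (0.71), Hoxa5 (0.013), Lss (0.42), Msmo1 (0.19), Pfkl (0.11), Pgk1 (0.72), Psmb5 (0.72), RT1-N2 (0.46) and Rac1 (0.42). Quantile normalisation reversed Acaca (0.031), C1s (−0.076), Eef1a1 (−0.31), Lss (0.18) and RT1-N2 (0.26). Averaging probe sets reversed Cxcl12 (−0.59), Lss (0.49), Psmb5 (3.74) and Srebf2 (1.88). Another single probe set reversed Acsl1 (−0.15), Cxcl12 (−1.92 and −0.61), Dst (−0.0706), Hk1 (0.10) and Pfkfb3 (0.31). Without wood only, Cish was at −0.97, Csn2 at −1.17 and Pmfbp1 at 0.81; with wood only, Pdgfc was at −0.94 and Stn1 at 0.66. RT1-N2 was at 0.43 with no replicate block and in the fit of all 24 arrays. Leaving out 1 rat ended the call of 5 named genes, Klrg1, Fcgr2b, Foxe3, Myrf and RT1-N2. Signal near the bottom of the scale limits the size of the largest differences.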
